A study of Mus musculus with 9 samples.

Results

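The 10 genes described here are Stab1, Stab2, Lyve1, Clec4g, Oit3, Gpr182, Fcgr2b, Kdr, Pecam1 and Vwf, which mark the endothelial cells that line the blood vessels of the liver. They were chosen by name, and all 10 were found among the 24421 gene symbols of the deposited count tables. RNA was sequenced from whole liver of 5-week-old C57BL/6J mice that had been fasted for 6 h. The 5 wild-type (WT) libraries came from control littermates, and the 4 OGT-deficient libraries came from mice in which Ogt, the gene of O-GlcNAc transferase, had been deleted. Both sexes were used. Neither the sex or litter of a mouse nor the promoter, Cre line or cell type behind the deletion is given in the sources used here. The labels number as many mice as libraries, and p-values measure the spread between these libraries. Ogt itself was measured at 61.6 ± 10.4 CPM (counts scaled to a common library size; mean ± SD, n = 5) in WT and at 16.9 ± 2.70 CPM (n = 4) in OGT-deficient livers, with library ranges of 51.1 to 73.1 and 14.3 to 20.6.

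Liver sinusoidal endothelial cells line the hepatic capillaries. They have open pores, little or no organised basement membrane and a dense set of endocytic receptors, with which they clear hyaluronan, modified proteins and small immune complexes from the blood. Endothelium of larger vessels and of most other organs instead forms a continuous lining on a basement membrane and stores von Willebrand factor, the product of Vwf, in Weibel-Palade bodies for platelet adhesion. Loss of the pores, with a gain of basement membrane and of markers of continuous endothelium, is known as capillarization. Stab1, Stab2, Lyve1, Clec4g, Oit3, Gpr182 and Fcgr2b are called the sinusoidal genes here. Kdr and Pecam1 are expressed by endothelium in general, and Vwf marks large vessels and continuous capillaries.

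Promoter sequences were available in RefSeq for 5 of the 10 genes. Shown are those of Clec4g and Stab2, which were lower in the OGT-deficient livers in the test over all genes, and of Stab1 and Kdr, whose differences did not pass it. Each runs 5′ to 3′ along the minus strand of GRCm38.p6, from 250 bases before to 50 bases after the RefSeq start. Clec4g lies at chr8:3720602-3720901, Stab2 at chr10:87007893-87008192, Stab1 at chr14:31168592-31168891 and Kdr at chr5:75978406-75978705. Capitals mark AGGAAG, a core sequence bound by ETS factors, a family with many members in endothelium, or its reverse complement CTTCCT.
Clec4g: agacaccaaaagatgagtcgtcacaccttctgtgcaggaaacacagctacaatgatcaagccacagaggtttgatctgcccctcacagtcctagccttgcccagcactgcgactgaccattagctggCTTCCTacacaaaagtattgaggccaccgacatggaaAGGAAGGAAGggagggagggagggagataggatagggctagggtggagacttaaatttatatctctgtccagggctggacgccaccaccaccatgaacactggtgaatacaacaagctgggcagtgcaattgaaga
Stab2: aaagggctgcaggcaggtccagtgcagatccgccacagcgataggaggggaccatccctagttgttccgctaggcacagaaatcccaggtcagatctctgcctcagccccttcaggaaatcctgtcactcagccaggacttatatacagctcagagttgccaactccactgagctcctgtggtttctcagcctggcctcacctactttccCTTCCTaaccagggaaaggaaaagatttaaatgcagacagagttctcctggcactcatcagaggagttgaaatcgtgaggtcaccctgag
Stab1: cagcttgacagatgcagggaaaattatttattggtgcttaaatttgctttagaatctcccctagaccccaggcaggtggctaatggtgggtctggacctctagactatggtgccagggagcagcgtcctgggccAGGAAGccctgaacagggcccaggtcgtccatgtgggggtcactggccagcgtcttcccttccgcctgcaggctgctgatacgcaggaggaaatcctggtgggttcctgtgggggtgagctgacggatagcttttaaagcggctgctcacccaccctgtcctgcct
Kdr: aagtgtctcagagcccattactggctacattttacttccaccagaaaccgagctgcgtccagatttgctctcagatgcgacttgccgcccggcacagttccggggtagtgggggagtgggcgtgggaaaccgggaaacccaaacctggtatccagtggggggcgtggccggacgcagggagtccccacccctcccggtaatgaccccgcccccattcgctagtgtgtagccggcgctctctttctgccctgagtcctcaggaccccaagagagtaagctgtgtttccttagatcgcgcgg
The Clec4g window held 3 matches, at -123, -86 and -82 bases from the start, and the last 2 overlap. Stab2 held 1 match at -40 and Stab1 held 1 at -116. Kdr and Fcgr2b (chr1:170976022-170976321) held 0. Of all 32851 promoters of this length in the same table, 35.4% held the motif on either strand. GATAA or its reverse complement TTATC, bound by GATA factors such as the sinusoidal regulator GATA4, was in 0 of the 5 windows and in 25.4% of all promoters. The matches are a description of these letters and were not tested as binding sites.

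Vwf was higher in OGT-deficient liver, 4 of the 7 sinusoidal genes were lower, and Kdr and Pecam1 did not pass the test. Values are CPM scaled by the trimmed mean of M-values (TMM), and the test was edgeR's quasi-likelihood test with Benjamini-Hochberg adjustment over 14104 genes, called at an adjusted p under 0.05. The 5 calls among 10 genes stand against 61.1% of all tested genes called in either direction, 31.6% higher and 29.4% lower. The share of these genes that was called was thus near that of all genes. The median log2 fold change (OGT-deficient over WT) of the sinusoidal genes was -0.38, and that of all tested genes was 0.02. The groups' ranges did not overlap for 2 of the 10 genes, Clec4g and Vwf, against 51.3% of all tested genes (26.2% higher and 25.0% lower). In whole liver, fewer cells of a type and less RNA per cell cannot be told apart.

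**Figure D1:**
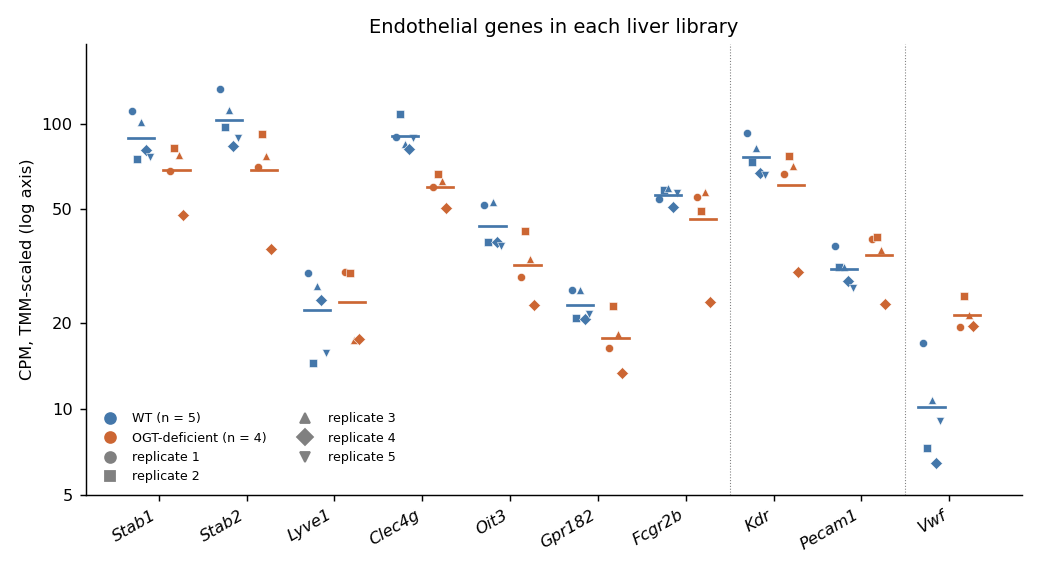
TMM-scaled CPM (log axis) of the 10 endothelial genes in each library, with WT and OGT-deficient livers side by side; points are libraries, shaped by replicate number, and lines are group means. Clec4g is lower and Vwf higher in every OGT-deficient library than in any WT library, and the groups overlap for the other 8 genes.

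Gene positions are those of GENCODE M21 on GRCm38, and all 10 genes but Vwf lie on the minus strand. Clec4g (chr8:3707064-3720651) encodes LSECtin, a C-type lectin of sinusoidal endothelium that binds glycans on pathogens and lymphocytes. Its levels in WT 1 to 5 were 89.4, 108, 84.9, 81.6 and 89.2 CPM, and in OGT-deficient 1 to 4 they were 59.7, 66.7, 62.9 and 50.6 CPM. Every OGT-deficient library lay below every WT library. The log2 fold change was -0.59 (SE 0.10, adjusted p = 0.000295, edgeR's quasi-likelihood test), from 90.6 ± 10.1 to 60.0 ± 6.84 CPM, and this gene was called under all 16 alternatives tried, at -0.66 to -0.47.

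The stabilins are large scavenger receptors that take up modified proteins and matrix fragments. Stab2 (chr10:86841198-87008025), the main receptor for hyaluronan clearance from the blood, was counted at 132, 97.6, 111, 83.3 and 88.9 CPM in WT and at 70.6, 92.2, 76.8 and 36.4 CPM in OGT-deficient livers. OGT-deficient 2 lay within the WT range and the other three below it. The log2 fold change was -0.57 (SE 0.22, adjusted p = 0.0369, edgeR's quasi-likelihood test). It lost the call with upper-quartile scaling (adjusted p = 0.0908) and without OGT-deficient 1 (0.0518), WT 1 (0.0838), WT 2 (0.0535) or WT 3 (0.0676). Stab1 (chr14:31139013-31168641), the paralogue that also marks some macrophages, stood at 111, 74.9, 102, 80.5 and 76.3 CPM in WT and at 68.1, 81.9, 77.5 and 47.9 CPM in OGT-deficient livers. The groups overlapped, since OGT-deficient 2 and 3 lay above WT 2, and the log2 fold change of -0.37 (SE 0.16) did not pass, with an adjusted p of 0.0648 from edgeR's quasi-likelihood test. Stab1 was called in 4 of 16 alternatives, among them the DESeq2 Wald test (adjusted p = 0.0400) and the fits without OGT-deficient 2 (0.0324) and without WT 2 (0.0496).

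Oit3 (chr10:59422958-59441778) encodes a secreted protein with a zona pellucida domain. Its levels were 51.9, 38.3, 53.0, 38.3 and 37.2 CPM in WT and 29.1, 41.9, 33.4 and 23.2 CPM in OGT-deficient livers. The groups overlapped only through OGT-deficient 2. The log2 fold change was -0.46 (SE 0.17, adjusted p = 0.0293, edgeR's quasi-likelihood test), a call lost with upper-quartile scaling and without OGT-deficient 1, OGT-deficient 4, WT 1 or WT 3 (adjusted p 0.0572 to 0.0908 over these). Gpr182 (chr10:127747276-127751732), an atypical chemokine receptor of sinusoidal and lymphatic endothelium, stood at 26.2, 20.9, 26.1, 20.7 and 21.5 CPM in WT and at 16.4, 22.9, 18.3 and 13.3 CPM in OGT-deficient livers. Again OGT-deficient 2 alone lay within the WT range. The log2 fold change was -0.38 (SE 0.14, adjusted p = 0.0354, edgeR's quasi-likelihood test), and the call was lost with upper-quartile scaling, with the CPM filter, and without OGT-deficient 1, 3 or 4 or WT 1 or 3 (adjusted p 0.0501 to 0.130 over these).

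Fcgr2b (chr1:170958617-170976547) encodes the inhibitory Fc gamma receptor, which on sinusoidal endothelium takes up small immune complexes and which B cells and macrophages also carry. Its levels were 54.4, 58.5, 59.4, 50.9 and 57.1 CPM in WT and 55.4, 49.2, 57.4 and 23.7 CPM in OGT-deficient livers. OGT-deficient 1 and 3 lay within the WT range, and OGT-deficient 4 lay far below it. Its log2 fold change of -0.27 (SE 0.20) did not pass (adjusted p = 0.248, edgeR's quasi-likelihood test) and was -0.08 without OGT-deficient 4. Of its 50-base exonic stretches, 8.24% also occur elsewhere in the transcripts, those of Fcgr3 among them, so reads of these stretches are uncertain. Lyve1 (chr7:110850607-110863239), a hyaluronan receptor of sinusoidal and lymphatic endothelium, stood at 29.9, 14.5, 27.0, 24.1 and 15.7 CPM in WT and at 30.1, 29.9, 17.5 and 17.6 CPM in OGT-deficient livers. Both groups held high and low libraries, and the log2 fold change of 0.10 (SE 0.24, adjusted p = 0.740, edgeR's quasi-likelihood test) changed sign between alternatives, from -0.06 to 0.23.

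OGT-deficient 4 was the lowest library of its group for 6 of the 7 sinusoidal genes and for 8 of the 10 genes. The summed CPM of the 7 sinusoidal genes was 495, 412, 463, 379 and 386 in WT and 329, 385, 344 and 213 in OGT-deficient livers. OGT-deficient 2 lay within the WT range of this sum and the other three below it.

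Kdr (chr5:75932827-75978458), the main signalling receptor for VEGF-A on endothelial cells, stood at 92.3, 73.5, 81.9, 67.0 and 66.1 CPM in WT and at 66.3, 77.0, 71.0 and 30.2 CPM in OGT-deficient livers. OGT-deficient 1, 2 and 3 lay within the WT range and OGT-deficient 4 far below it. It differed by -0.32 on the log2 scale (SE 0.22, adjusted p = 0.218, edgeR's quasi-likelihood test) and -0.12 without OGT-deficient 4. Pecam1 (chr11:106654217-106750628), the junctional adhesion molecule CD31 that platelets and leukocytes also carry, stood at 37.2, 31.4, 31.5, 28.0 and 26.6 CPM in WT and at 39.5, 40.0, 36.0 and 23.3 CPM in OGT-deficient livers. Here OGT-deficient 1 and 2 lay above the WT range and OGT-deficient 4 below it. Its log2 fold change of 0.16 (SE 0.15, adjusted p = 0.355, edgeR's quasi-likelihood test) did not pass, and without OGT-deficient 4 it was 0.29 and passed (adjusted p = 0.0363).

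Vwf (chr6:125546774-125686679) stood at 17.0, 7.27, 10.7, 6.49 and 9.06 CPM in WT and at 19.4, 24.9, 21.2 and 19.5 CPM in OGT-deficient livers. All OGT-deficient values exceeded the highest WT value, that of WT 1. Group means were 10.1 ± 4.21 CPM (n = 5) and 21.3 ± 2.57 CPM (n = 4), a 2.09-fold difference (log2 1.06, SE 0.23, adjusted p = 0.00139, edgeR's quasi-likelihood test). It was called under all 16 alternatives, at 0.94 to 1.34. WT 1 held the highest Vwf of its group, and also its highest summed markers of stellate cells (499 CPM), Kupffer cells (836 CPM) and recruited macrophages (84.4 CPM). It was likewise the highest WT library for the summed sinusoidal genes (495 CPM), basement membrane genes (2949 CPM) and bile duct cell markers (79.3 CPM). For summed hepatocyte markers the highest was WT 2. Without WT 1 the log2 fold change of Vwf was 1.34. Between 187 and 1115 counts a library stood behind Vwf.

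Compared per length, as RPKM (CPM per kilobase of merged exons), Clec4g was the most abundant of the 10 transcripts and Vwf the least in both groups. In WT the levels were 36.8 ± 4.12 RPKM for Clec4g, 15.7 ± 2.85 for Oit3, 11.7 ± 2.24 for Stab2, 9.68 ± 0.599 for Fcgr2b, 8.63 ± 1.58 for Stab1, 8.43 ± 1.22 for Kdr, 7.62 ± 2.34 for Lyve1, 5.83 ± 0.714 for Gpr182, 4.97 ± 0.657 for Pecam1 and 0.630 ± 0.262 for Vwf (n = 5 each). Clec4g stayed above Oit3, and Vwf below Pecam1, without overlap, while all other neighbours in this order overlapped in their ranges. In OGT-deficient livers Clec4g stood at 24.4 ± 2.78 RPKM, Oit3 at 11.4 ± 2.82, Lyve1 at 8.15 ± 2.47, Pecam1 at 5.57 ± 1.26 and Vwf at 1.32 ± 0.160 (n = 4 each). With the longest transcript as length, Clec4g at 62.8 RPKM and Vwf at 1.15 RPKM were still first and last in WT.

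The contrast between Vwf and the sinusoidal genes was then taken within each library, as counts of Vwf per 100 counts of another gene, a ratio that no library scaling can move. Against Stab2 it was 12.9, 7.44, 9.66, 7.78 and 10.2 in WT and 27.5, 27.0, 27.7 and 53.6 in OGT-deficient livers. The lowest OGT-deficient library was above the highest WT library, and OGT-deficient 4 stood apart from the other three. Against Clec4g the ratio was 19.1, 6.74, 12.7, 7.95 and 10.2 in WT and 32.5, 37.3, 33.8 and 38.5 in OGT-deficient livers, where OGT-deficient 4 did not stand apart. Against all 7 sinusoidal genes summed it was 3.44, 1.76, 2.32, 1.71 and 2.35 in WT and 5.89, 6.47, 6.18 and 9.17 in OGT-deficient livers.

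The ratio of Vwf to each of the other 9 genes was higher in every OGT-deficient library than in any WT library. On the log2 scale of CPM with a pseudocount of 0.1, the differences were 1.77 against Stab2, 1.74 against Clec4g, 1.61 against Oit3, 1.54 against Gpr182, 1.54 against Kdr, 1.52 against Stab1 and 1.49 against Fcgr2b. The smallest were that against Lyve1, at 1.04, and that against Pecam1. Against Pecam1 the ratio was 45.9, 23.1, 34.1, 23.2 and 34.1 Vwf counts per 100 in WT and 49.1, 62.3, 58.9 and 83.9 in OGT-deficient livers. Each of the 9 had a two-sided exact permutation p of 0.0159, the smallest that 5 against 4 libraries allow, and an adjusted p of 0.0292 over all tested genes. The 9 ratios share Vwf and are not independent. Of all tested genes, 60.5% passed this test in the same direction (4.42% in the other) and 51.1% did not overlap in that direction (3.29% in the other), so a higher Vwf ratio was the common case. With limma, an alternative chosen after seeing the data, all 9 ratios were called higher, against 71.4% of all tested genes higher and 5.97% lower.

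**Figure D2:**
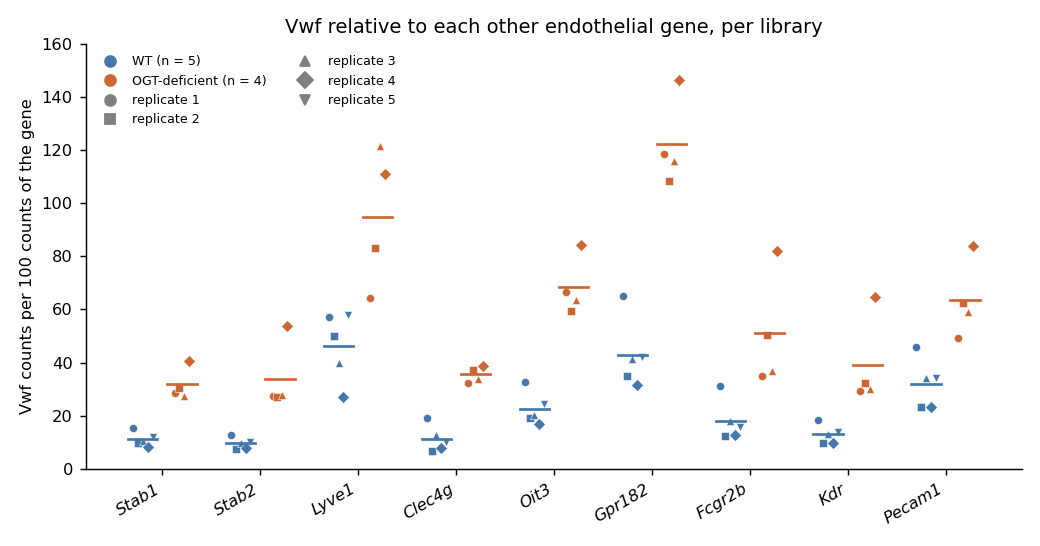
Vwf counts per 100 counts of each of the other 9 endothelial genes (linear axis); points are libraries, shaped by replicate number, and lines are group means. Against Stab2 the WT libraries sit between 7.44 and 12.9 and the OGT-deficient libraries between 27.0 and 53.6, and the groups do not overlap in any of the 9 ratios.

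Ratios of other genes to Stab2 are given as a description. The groups did not overlap for Pecam1, and they overlapped for Stab1, Lyve1 and Clec4g. The share of all tested genes whose ratio to Stab2 did not overlap was not computed. Pecam1 counts per 100 Stab2 counts were 28.1, 32.2, 28.3, 33.6 and 29.9 in WT and 55.9, 43.4, 46.9 and 63.9 in OGT-deficient livers, without overlap. Stab1 counts per 100 Stab2 counts were 83.7, 76.7, 91.3, 96.5 and 85.8 in WT and 96.4, 88.8, 101 and 132 in OGT-deficient livers, and these overlapped.

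To describe the genes against endothelium in general, each was set, within a library, against 16 pan-endothelial genes that are none of the 10, as its log2(CPM + 0.1) minus their mean. Relative to that reference 6 of the 10 genes were lower and 1 was higher, against 11.7% of all tested genes lower and 20.4% higher by the same exact permutation test. The log2 differences were -0.66 for Stab2, -0.63 for Clec4g, -0.50 for Oit3, -0.43 for Gpr182, -0.42 for Kdr and -0.41 for Stab1. In each of these 6 every OGT-deficient library lay below every WT library, with an exact permutation p of 0.0159 and an adjusted p of 0.0493. Vwf was 1.11 higher on the log2 scale, 2.16-fold, with the same p-values and no overlap. Fcgr2b differed by -0.38 (exact permutation p = 0.0635, adjusted p = 0.127), Pecam1 by 0.11 (p = 0.111, adjusted p = 0.193) and Lyve1 by 0.07 (p = 0.905, adjusted p = 0.933), and none of these 3 passed. The reference holds Cd93, itself called higher. Without Cd93, a choice made after seeing the data, the 6 lower differences shrank, to -0.59 for Stab2 and -0.33 for Stab1, and Vwf was at 1.19. Their adjusted p was then 0.0480 in the exact permutation test, still close to the threshold.

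The spread among WT libraries was small for Kdr and Stab2 and wide for Vwf. For Kdr the log2 ratio was 2.09 ± 0.07 (SD, n = 5) in WT and 1.67 ± 0.34 (n = 4) in OGT-deficient livers, and for Stab2 it was 2.51 ± 0.12 and 1.85 ± 0.30. For Vwf it was -0.88 ± 0.41 and 0.23 ± 0.22. The adjusted p of 0.0493 is close to the threshold: with a pseudocount of 1 CPM, or with the list's median in place of its mean, 0 ratios were called in either direction. With limma on the same ratios, also chosen after seeing the data, Stab2 (adjusted p = 0.00888), Clec4g (0.00972) and Oit3 (0.0303) were called lower and Vwf (0.000557) higher, while Gpr182 (0.0562), Stab1 (0.0686) and Kdr (0.0848) were not. By limma 18.8% of all tested genes were called lower and 23.9% higher.

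**Figure D3:**
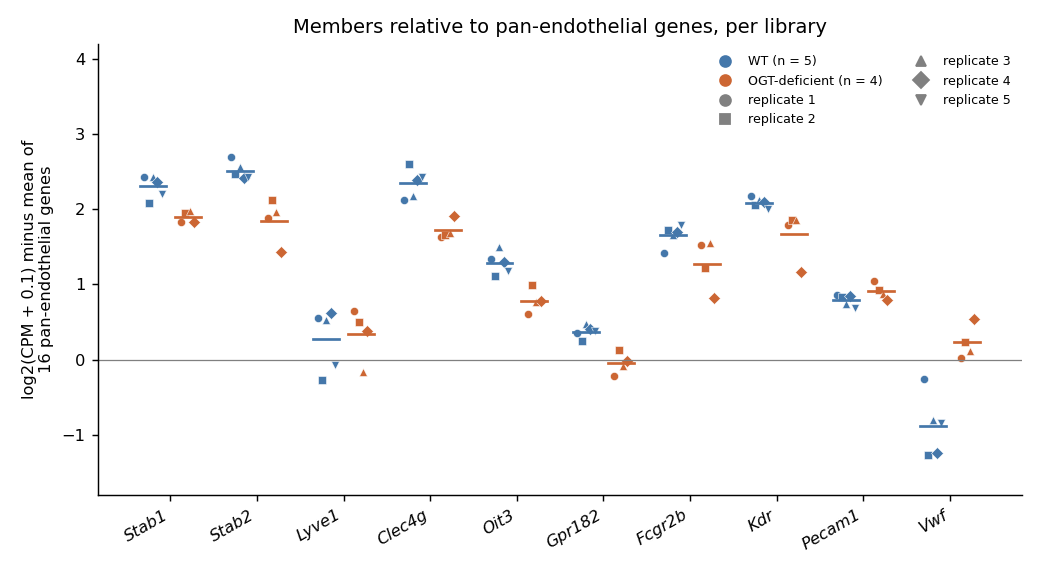
Log2(CPM + 0.1) of each of the 10 genes (members) minus the mean of the same value over 16 pan-endothelial genes; points are libraries, by group, and lines are group means. Stab2, Clec4g, Oit3, Gpr182, Kdr and Stab1 are lower and Vwf is higher in all 4 OGT-deficient libraries than in any WT library.

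Of the 16 pan-endothelial genes themselves 1 was called higher and 0 lower, against 61.1% of all tested genes called, with a median of -0.00 (log2). Without OGT-deficient 4 there were 2 higher calls, and without OGT-deficient 2 or 3 there were 2 and 1 lower calls. VE-cadherin, encoded by Cdh5, had means of 45.4 ± 7.40 and 47.1 ± 11.9 CPM in WT and OGT-deficient livers (log2 0.05, adjusted p = 0.802, edgeR's quasi-likelihood test, changing sign between alternatives). The 1 called gene, Cd93, a surface receptor of angiogenic endothelium that myeloid cells also carry, rose from 7.59 ± 1.80 to 17.0 ± 4.25 CPM (log2 1.16, adjusted p = 0.000212, edgeR). The list's summed CPM was 569, 473, 530, 431 and 449 in WT and 460, 532, 483 and 333 in OGT-deficient livers, lowest again in OGT-deficient 4.

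Of 21 other genes enriched in sinusoidal endothelium, 7 fell and 1 rose. Among all tested genes 29.4% were lower, near this list's share, and 31.6% were higher, a larger share than the list's. The list's median log2 fold change was -0.20. Bmp2, a ligand from sinusoidal endothelium that drives hepcidin in hepatocytes, fell from 42.4 ± 5.18 to 22.4 ± 5.95 CPM (log2 -0.93, adjusted p = 0.000212, edgeR's quasi-likelihood test), and the groups did not overlap. Dnase1l3, a secreted DNase, fell from 76.5 ± 3.54 to 52.4 ± 12.6 CPM (log2 -0.54), and Ehd3, an endocytic trafficking protein, from 74.4 ± 8.38 to 53.8 ± 13.4 CPM (log2 -0.47). Cyp4b1 fell by 0.75 on the log2 scale and Dpp4, which hepatocytes also express, by 0.34. Maf, a transcription factor of sinusoidal endothelium and macrophages, was lower by -0.35 (adjusted p = 0.0400, edgeR), a call that held in 7 of 16 alternatives. Gata4 stood at 28.2 ± 7.48 and 28.5 ± 1.19 CPM (adjusted p = 0.949, edgeR), a difference that changed sign between alternatives. The 1 gene that rose was Cd36, a fatty acid and lipoprotein receptor that hepatocytes and macrophages also carry, from 30.5 ± 3.51 to 62.2 ± 12.8 CPM. With upper-quartile scaling 4 genes of the list were called lower, and without OGT-deficient 4 there were 2 higher calls.

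Genes of continuous and capillary endothelium were mostly higher, with 12 of 17 tested called higher, 0 lower and a median of 0.72 (log2), against 31.6% of all genes higher. Cav1, the main coat protein of endothelial caveolae, rose from 2.22 ± 0.393 to 8.50 ± 1.39 CPM (log2 1.93, adjusted p = 9.46e-07, edgeR's quasi-likelihood test), with ranges of 1.67 to 2.67 and 7.34 to 10.3 CPM. Cd34, a sialomucin of capillary endothelium that fibroblasts also carry, rose from 1.51 ± 0.414 to 8.49 ± 2.49 CPM (log2 2.47), and Tm4sf1 from 13.4 ± 1.45 to 20.2 ± 4.04 CPM (log2 0.60). Vwa1 rose from 0.542 ± 0.179 to 1.48 ± 0.405 CPM (log2 1.45), and an opposite-strand gene covers 4.22% of its exonic bases. Ly6c1 stood at 0.186 ± 0.114 and 1.77 ± 0.876 CPM, but 36.7% of its 50-base stretches occur in other transcripts, so its counts are uncertain. Apln, a peptide of sprouting endothelium, was near 3 counts a library in WT (0 to 0.128 CPM) and at 0.328 to 0.476 CPM in OGT-deficient livers. Plvap, the diaphragm protein of fenestrated endothelium, stood at 75.0 ± 19.8 and 85.5 ± 22.7 CPM and did not pass (adjusted p = 0.454, edgeR). Genes very low in WT, such as Apln, can pass the filter through the OGT-deficient libraries alone, so the 12 of 17 leans towards higher calls. With only genes of at least 1 CPM in 4 libraries, 7 of 12 tested were called higher, with a median of 0.66 (log2). Without OGT-deficient 1 there were 8 of 17.

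Of 13 basement membrane genes, 12 rose and 1 fell, against 31.6% and 29.4% of all tested genes, and the median of their log2 fold changes was 1.15. Lama5, a laminin chain of vessel and epithelial basement membranes, rose from 6.71 ± 0.687 to 32.0 ± 4.21 CPM (log2 2.25, adjusted p = 1.37e-08, edgeR's quasi-likelihood test). Nid1, which links laminin to collagen IV, rose from 33.5 ± 12.9 to 188 ± 29.4 CPM (log2 2.49), and Col4a1, a chain of collagen IV, from 66.2 ± 29.6 to 220 ± 35.2 CPM (log2 1.73). The laminin chains Lamc1 and Lamb1 rose from 31.9 ± 6.70 to 70.8 ± 10.5 CPM (log2 1.15) and from 11.4 ± 5.09 to 38.1 ± 6.58 CPM (log2 1.74). Col15a1, a collagen of continuous basement membranes, rose from 7.17 ± 2.67 to 20.7 ± 5.30 CPM (log2 1.54). The gene that fell was Col18a1, which hepatocytes express strongly, from 1704 ± 288 to 1095 ± 156 CPM (log2 -0.64). Stellate cells and bile duct cells make these proteins too. The summed level of 12 stellate cell markers was 234 to 499 CPM in WT and 1003 to 1372 CPM in OGT-deficient livers, with 10 of 12 called higher, and that of 8 cholangiocyte markers was 49.5 to 79.3 and 158 to 269 CPM, with 7 higher. Their part in the values of the basement membrane genes, of the continuous and capillary genes, Cav1 and Cd34 among them, and of Vwf was not tested.

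**Figure D4:**
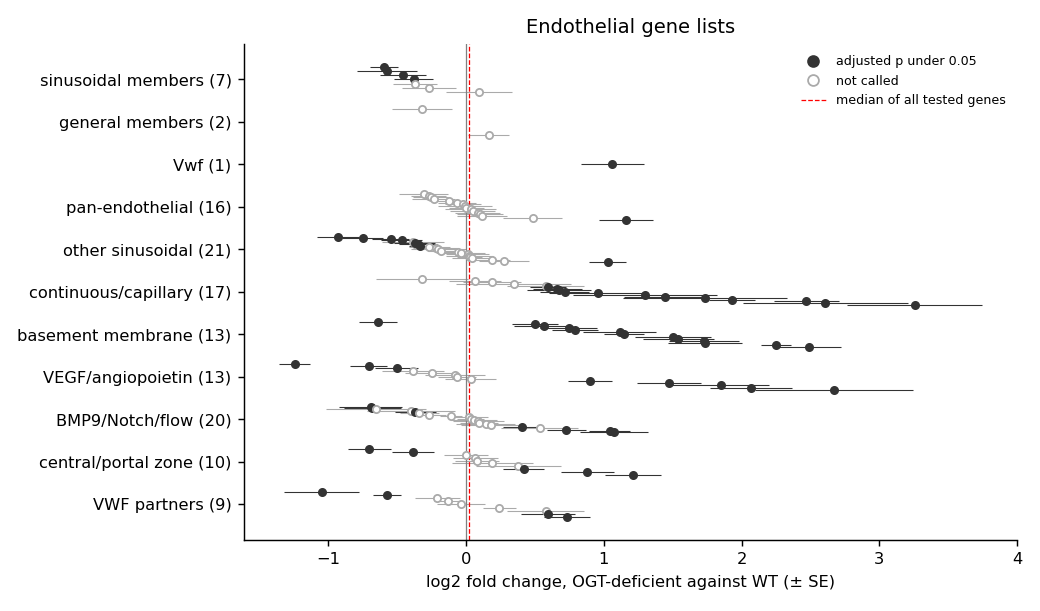
Log2 fold changes (OGT-deficient over WT) with their SE for the 10 genes and the endothelial gene lists, with 1 point for each tested gene, filled where called, and the number tested beside each name. The dashed line is the median of all tested genes, 0.02, and the medians are -0.38 for the 7 sinusoidal genes, 0.72 for the continuous and capillary list and 1.15 for the basement membrane list.

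Among 13 ligands and receptors of the VEGF and angiopoietin pathways, 5 rose, 3 fell and the median was -0.06 (log2), shares near those of all tested genes (31.6% higher and 29.4% lower). Vegfa, which hepatocytes supply to sinusoidal endothelium and which signals through Kdr, fell from 205 ± 30.9 to 86.7 ± 4.98 CPM (log2 -1.24, adjusted p = 1.42e-06, edgeR's quasi-likelihood test). The WT libraries spanned 166 to 239 CPM and the OGT-deficient libraries 81.7 to 93.6 CPM. Vegfb fell from 15.9 ± 2.57 to 9.73 ± 1.44 CPM (log2 -0.71). The coreceptor Nrp1 fell from 123 ± 18.8 to 86.8 ± 22.1 CPM (log2 -0.50, adjusted p = 0.0132, edgeR). The lymphatic growth factors went the other way, Vegfc from 3.87 ± 0.759 to 7.24 ± 1.01 CPM (log2 0.90) and Vegfd, listed as Figf, from 0.926 ± 0.264 to 2.54 ± 0.363 CPM (log2 1.47). Both angiopoietins rose, Angpt1 from 0.677 ± 0.234 to 2.86 ± 0.880 CPM (log2 2.07) and Angpt2, a context-dependent antagonist of the Tie2 receptor that is stored with von Willebrand factor, from 1.34 ± 0.653 to 4.84 ± 1.82 CPM (log2 1.85). Pgf, placental growth factor, was called higher at low levels, 0.0802 ± 0.0475 and 0.534 ± 0.331 CPM. Such a gene can pass the filter through the OGT-deficient libraries alone. With only genes of at least 1 CPM in 4 libraries, 4 of 12 tested were called higher and 3 lower. The receptors Flt1 (log2 -0.24, adjusted p = 0.300, edgeR) and Flt4 (log2 -0.38, adjusted p = 0.159, edgeR) did not pass.

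**Figure D5:**
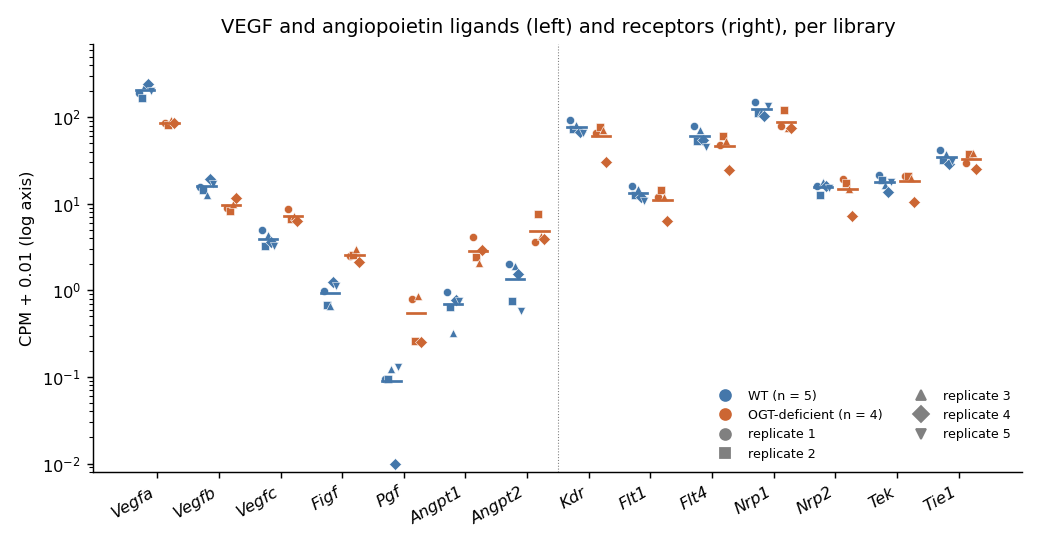
CPM + 0.01 (log axis) of VEGF and angiopoietin ligands (Figf is Vegfd) and their receptors, with Kdr first among the receptors; points are libraries, shaped by replicate number, and lines are group means. Vegfa is lower in all OGT-deficient libraries (81.7 to 93.6 CPM) than in WT (166 to 239 CPM), while the groups overlap for Kdr.

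Of 20 tested genes of BMP9, Notch and flow signalling, 4 rose, 3 fell and the median was 0.05 (log2), a smaller share called than the 61.1% of all tested genes. Gdf2, which encodes BMP9, a stellate cell ligand for endothelial ALK1, rose from 16.3 ± 3.23 to 21.6 ± 2.43 CPM (log2 0.41, adjusted p = 0.0220, edgeR's quasi-likelihood test), a call that held in 13 of 16 alternatives. Acvrl1, which encodes ALK1, rose from 4.12 ± 0.597 to 6.84 ± 0.905 CPM (log2 0.73), while Id2 (log2 -0.68) and Smad9 (log2 -0.69), both downstream of BMP receptors, fell. Other downstream genes of the list did not pass in edgeR's test, with log2 fold changes of -0.40 for Id1 (adjusted p = 0.295), 0.09 for Id3 (0.686) and 0.03 for Smad6 (0.883), and the last 2 changed sign between alternatives. The Notch ligand Jag1, which bile ducts also express, rose from 6.52 ± 1.07 to 13.5 ± 2.37 CPM, and the Notch target Hey1 from 0.731 ± 0.114 to 1.55 ± 0.416 CPM. Klf2, induced by flow, was lower by -0.37 (adjusted p = 0.0496, edgeR), a call that held in 6 of 16 alternatives, and its flow-responsive partner Nos3 did not pass (log2 0.10, adjusted p = 0.570, edgeR). For Nos3 an opposite-strand gene covers 7.12% of the exonic bases, and 6.00% of its 50-base stretches occur in other transcripts.

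Zone and vein markers were split, with 3 of 10 called higher, 2 lower and a median of 0.14, near the shares of all tested genes (31.6% and 29.4%). Wnt2, a central Wnt ligand of pericentral endothelium, fell from 5.48 ± 0.735 to 3.38 ± 0.553 CPM (log2 -0.70, adjusted p = 0.00179, edgeR's quasi-likelihood test). Rspo3, its pericentral amplifier, was higher by 0.42 on the log2 scale, called in 11 of 16 alternatives, and Wnt9b did not pass (log2 0.38, adjusted p = 0.300, edgeR). Efnb2, a marker of arterial endothelium, rose from 4.19 ± 0.892 to 7.73 ± 1.95 CPM (log2 0.88), and Adgrg6, a receptor of vein endothelium, from 1.97 ± 0.457 to 4.60 ± 0.991 CPM (log2 1.21). Ntn4, a laminin-related netrin, was lower by -0.38 (adjusted p = 0.0478, edgeR), called in 8 of 16 alternatives and lost without OGT-deficient 1, 3 or 4 or WT 1, 2 or 3.

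Of 9 tested partners of von Willebrand factor in storage, release and binding, 2 were higher and 2 lower, with a median of -0.04, against 31.6% and 29.4% of all tested genes. With upper-quartile scaling 4 were higher, and without OGT-deficient 2 there was 1. F8, factor VIII, which circulates bound to von Willebrand factor and is made by sinusoidal endothelium, spanned 20.4 to 25.7 CPM in WT and 13.0 to 27.7 CPM in OGT-deficient livers and did not pass (adjusted p = 0.870, edgeR's quasi-likelihood test). Selp, P-selectin, which shares the storage granule, stood at 1.95 ± 0.772 and 2.94 ± 0.914 CPM (log2 0.58, adjusted p = 0.0915, edgeR). An opposite-strand gene covers 9.93% of the exonic bases of Selp, and 10.2% of its 50-base stretches occur in other transcripts. Rab27a, a GTPase of granule release, rose from 3.43 ± 0.376 to 5.71 ± 1.31 CPM (log2 0.73), and Stxbp5, which restrains exocytosis, fell by 0.57 on the log2 scale. Itgb3, a chain of platelet and endothelial integrins, rose by 0.60 (adjusted p = 0.0180, edgeR). Gp1ba, the platelet receptor for von Willebrand factor, fell from 0.622 ± 0.0744 to 0.298 ± 0.0470 CPM.

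Other cells of the liver share some of the 10 genes. Platelets carry Vwf and Pecam1, and the summed level of 8 megakaryocyte and platelet markers was 4.59 to 7.46 CPM in WT and 5.34 to 7.10 CPM in OGT-deficient livers. Of the 4 that could be tested, Pf4 rose and Gp1ba fell. Summed Kupffer cell markers, whose cells can carry Stab1 and Fcgr2b, spanned 576 to 836 and 575 to 977 CPM. Of these 10 markers 3 were higher (Marco, C1qa and C1qb) and 1 lower (Cd163). Among all tested genes 31.6% were higher, near the Kupffer share, and 29.4% lower, and these shares also stand beside the counts below. Summed markers of recruited macrophages were 53.4 to 84.4 CPM in WT and 214 to 330 CPM in OGT-deficient livers, with 9 of 10 called higher. Those of B cells were 3.92 to 6.79 and 3.39 to 8.32 CPM. Of 6 B cell markers, 1 was called higher (Cr2) and 1 lower, with a median of -0.73 (log2). Summed hepatocyte markers were 124337 to 155911 CPM in WT and 65856 to 83097 CPM in OGT-deficient livers, with 9 of 10 lower. The part of these cells in the values of the 10 genes was not tested.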

How the data were processed

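Raw read counts per gene symbol were deposited by the authors for 9 liver libraries, made with TopHat2 2.1.0 and HTSeq 0.9.1 on mm10 (GRCm38), per the submitters' processing notes. No source used here gives the kit or strand setting. Each library held 32337861 to 54130901 counts in 24421 genes, and HTSeq's unassigned summary lines were left out of library sizes and tests. No-feature reads were 8.95% to 10.7% of the reads assigned, ambiguous or without a feature. HTSeq's line for alignments that were not unique separated the groups. Its smallest WT value was 16167401 (WT 1) and its largest 35276937 (WT 5), while no OGT-deficient library exceeded 9317390 (OGT-deficient 3). For WT 4 this line (33109310) was larger than the gene counts (32337861). The effect of this group difference on the gene values was not tested. A count of 3 corresponds to 0.0572 to 0.104 CPM, and precision covers counting error and the spread between libraries. The 10 genes and all lists were chosen with earlier results of these data known.

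Genes passing filterByExpr (14104) were fitted in edgeR 4.0.16 (R 4.3.3) on 5 WT and 4 OGT-deficient libraries without covariates, with TMM factors of 0.880 to 0.915 (WT) and 1.09 to 1.22 (OGT-deficient), and tested by quasi-likelihood F test with Benjamini-Hochberg adjustment. Standard errors are the absolute log2 fold change over the square root of F. RPKM used merged exons of GENCODE M21. Ratios of log2(CPM + 0.1) were computed for every tested gene and tested with a two-sided exact permutation test over libraries, adjusted over all genes. Its p-values were checked against scipy 1.17.1 on simulated data. All 10 genes were named. Of each other list with over 6 called genes, the 6 with the smallest p were named, otherwise the called ones, plus genes whose role a sentence needed.

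Alternatives were DESeq2 1.42.0 (its Wald test, and its size factors in edgeR), limma voom, upper-quartile factors, no filter, a CPM filter of at least 1 in 4 libraries, a replicate block, leaving out each library, other pseudocounts and references for the ratios and, chosen after seeing the data, limma 3.58.1 on the ratios and the reference list without Cd93. Within groups, all 16 pairs of libraries differed beyond sampling noise. Same-numbered libraries did not deviate together (r -0.10 to 0.10), so the numbers were not taken to pair mice. The edgeR test, the permutation test and limma on the ratios were checked on simulated data, and the DESeq2 and voom fits were not. Some marker genes of other cell types are not reported here.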

Additional observations from a re-analysis of the deposited data

Results flagged for a closer look

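In OGT-deficient 4 there were 53.6 Vwf counts per 100 Stab2 counts, while the nearest library of the group had 27.7, and the gap was 0.976 of the group's range, above Dixon's critical value of 0.829 for 4 samples. The same library had 64.6 Vwf counts per 100 Kdr counts, against 32.4 in the nearest, a gap of 0.912 of the range. Both are libraries far from the others of their group, among 38 groups looked at with 2 flags, and chance flags about 1 in 20 groups. Vwf itself stood at 19.5 CPM in OGT-deficient 4, within the 19.4 to 24.9 CPM of its group, while Stab2 (36.4 CPM) and Kdr (30.2 CPM) were the lowest there. The cause was not tested.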

How the results depend on the processing

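Clec4g was called lower and Vwf higher under all 16 alternatives, 9 of which leave out 1 library. The number of the 10 genes called lower, 4 in the fit reported, was 1 with upper-quartile scaling and 1 to 5 when 1 library was left out (1 without OGT-deficient 1, WT 1 or WT 3, and 2 without OGT-deficient 4). The number called higher was 1 to 2. Upper-quartile scaling moved the all-gene median of log2 fold changes from 0.02 to 0.14 and the share of calls that were higher from 51.8% to 62.5%. Under it Clec4g was at -0.47 and Vwf at 1.18 (log2). With a replicate block 5 genes were called lower, Stab1 (adjusted p = 0.0350) among them, and 1 higher. All 9 Vwf ratios kept groups that do not overlap with a pseudocount of 1 CPM. In the settings that only drop libraries this was fixed in advance, since groups that lie apart stay apart. The number passing the permutation test was 0 with the replicate block, where 4 pairs cannot go below 0.125. It was 0 to 9 when 1 library was left out, where fewer libraries raise the smallest p to 0.0286 or 0.0357. For the ratios to the pan-endothelial genes, 0 were called lower and 0 higher with a pseudocount of 1 CPM, with the median over the list, with the replicate block, and with any library left out (0 to 0), and limma called 3 lower. The same limits on the smallest p apply to these ratios with the replicate block and with a library left out. Signs changed for values that did not pass: the log2 fold change of Lyve1 was -0.013 with the replicate block and -0.062 to 0.228 without 1 library, and its pan-endothelial ratio differed by -0.012 and -0.064 to 0.242. Likewise Cdh5 was at -0.0077 and -0.111 to 0.172, Gata4 at -0.042 and -0.072 to 0.164, Id3 at -0.055 and -0.062 to 0.202, and Smad6 at -0.048 and -0.066 to 0.085. F8 was at 0.087 with upper-quartile scaling and -0.171 to 0.126 without 1 library. Depth limits Apln and Ly6c1, which had few counts a library in WT.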

Other observations

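Markers of lymphatic endothelium, with which Lyve1 and Gpr182 are shared, were split. Of 5 tested, 3 were higher and 1 lower, against 31.6% and 29.4% of all tested genes. Of 5 tested, Reln (63.6 ± 14.5 to 107 ± 10.7 CPM), Mmrn1 (0.426 ± 0.368 to 2.37 ± 1.70 CPM) and Pdpn (0.246 ± 0.252 to 0.869 ± 0.385 CPM) rose, and Prox1 (84.7 ± 12.3 to 43.9 ± 5.89 CPM) fell, in edgeR's quasi-likelihood test. Mmrn1 and Pdpn were low in WT. Genes like these can pass the filter through the OGT-deficient libraries alone, so the count can lean towards higher calls. Prox1 is also a hepatocyte transcription factor, Reln is also made by stellate cells and Pdpn by fibroblasts and bile duct cells. Ccl21a, the lymphatic chemokine, was at 0 counts in all 9 libraries. The summed level of the list was 192 to 241 CPM in WT and 170 to 224 CPM in OGT-deficient livers.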
